A study of Mus musculus with 6 samples.

Results

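Enteroendocrine cells are the hormone-secreting cells of the gut epithelium, and their transcripts were followed here through 10 genes in mouse colonic organoids. The genes were taken by symbol as fate factors (Neurog3, Neurod1), granins (Chga, Chgb), peptide hormones (Pyy, Gcg, Insl5, Sct, Cck) and the enzyme that starts serotonin synthesis (Tph1). They are 10 of the 25067 rows of the deposited expression values. RNA was sequenced from 6 libraries, 3 of organoids given vehicle (ethanol) and 3 of organoids given 4-OH-Tamoxifen (4-OHT) for 3 days. All 6 came from 8-week-old C57BL/6 mice and carried floxed alleles of both atypical protein kinase C (aPKC) genes together with a tamoxifen-inducible Cre, written Prkcif/fPrkczf/f;Villin-CreERT2. Both groups grew in medium with B27, WNT3A, EGF, Noggin and R-spondin 1. The vehicle libraries are called wild type in their descriptions, although they hold the same floxed alleles and the same Cre as the 4-OHT libraries. The Villin promoter drives Cre in the intestinal epithelium, and no library had 4-OHT without Cre or without floxed alleles. Loss of aPKC, Cre activity and 4-OHT itself therefore cannot be told apart. The labels do not say whether libraries came from separate mice or cultures, so p-values measure the spread between these libraries, which may be technical.

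Enteroendocrine cells arise from crypt progenitors. A secretory progenitor that expresses Atoh1 switches on Neurog3, a transient factor that commits the cell to the endocrine fate, and Neurod1 acts after it. The maturing cell builds dense-core granules from granins, cuts prohormones with convertases and trims them with carboxypeptidase E. In the colon the main kinds are L cells, which make peptide YY, glucagon-like peptides from Gcg and insulin-like peptide 5, and enterochromaffin cells, which make serotonin.

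Recovered reads ranged from 15804709 to 26957612 per library. Prkcz had 880 to 954 normalized counts in vehicle and 265 to 290 in 4-OHT libraries, and Prkci had 3430 to 3603 against 2869 to 3105, so the targeted genes were lower in every 4-OHT library. Normalized counts are reads divided by 1 size factor per library, with no correction for gene length. Epithelial markers of the colon were abundant, Epcam for one at 26033 to 34653 normalized counts. Of the 6 libraries, 4-OHT replicates 2 and 3 stood apart by transcripts of other tissue. A list of 8 Paneth and ileal genes held 37.6, 84.9 and 69.6 RPM (reads scaled to the library total) in 4-OHT replicates 1, 2 and 3, and 43.0 to 53.7 in vehicle. The 4 plasma cell genes summed to 0.0519, 10.4 and 3.52 RPM in the same order and to 0 in every vehicle library, with Mzb1 at 0 throughout. The 5 smooth muscle genes summed to 0.415, 3.01 and 7.95, against 0.0491 to 0.380 in vehicle. Results are therefore also given without these libraries, and the part these reads play in the results was not tested.

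All 10 genes had reads in every library, from 5 reads of Cck to 784 reads of Chgb. Together they took 36.1 to 51.6 RPM in vehicle and 53.9 to 63.3 in 4-OHT libraries. In 4-OHT organoids 5 of the 9 genes whose normalized counts averaged at least 10 were higher and 0 were lower (limma-trend on log2 of the normalized count plus 1, adjusted p under 0.05 over all 13210 genes tested). Those 5 were Chga, Chgb, Pyy, Gcg and Tph1. Each of the 9 averaged above 10 in vehicle as well. Among all genes tested, 43.6% were called, with 22.7% higher and 21.0% lower, so changes were common. Most of these members are thinly read, and in the rows with a mean of 10 to 100 10.1% were called higher and 10.7% lower. In that range lay 7 of the 9 members, of which 3 were higher. The median log2 fold change was 0.59 over the 9 members and -0.01 over all genes tested. The edgeR quasi-likelihood test on the recovered reads called 4 members, all higher, at a background of 22.4% of genes called higher. Without 4-OHT replicate 2, 3 members (Chgb, Pyy and Gcg) were called, all higher, where 38.8% of all genes were called and 20.2% were higher. With 4-OHT replicates 2 and 3 both left out, 1 member, Pyy, was called, at a background of 27.0% called and 14.1% higher, and the remaining 4-OHT library was then assumed to vary like the vehicle group. All 3 4-OHT values lay above all 3 vehicle values for 5 of the 9 tested members and below them for 0, against 26.8% and 25.3% of all genes tested. In bulk RNA, more cells of a type and more transcript per cell cannot be told apart.

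**Figure D1:**
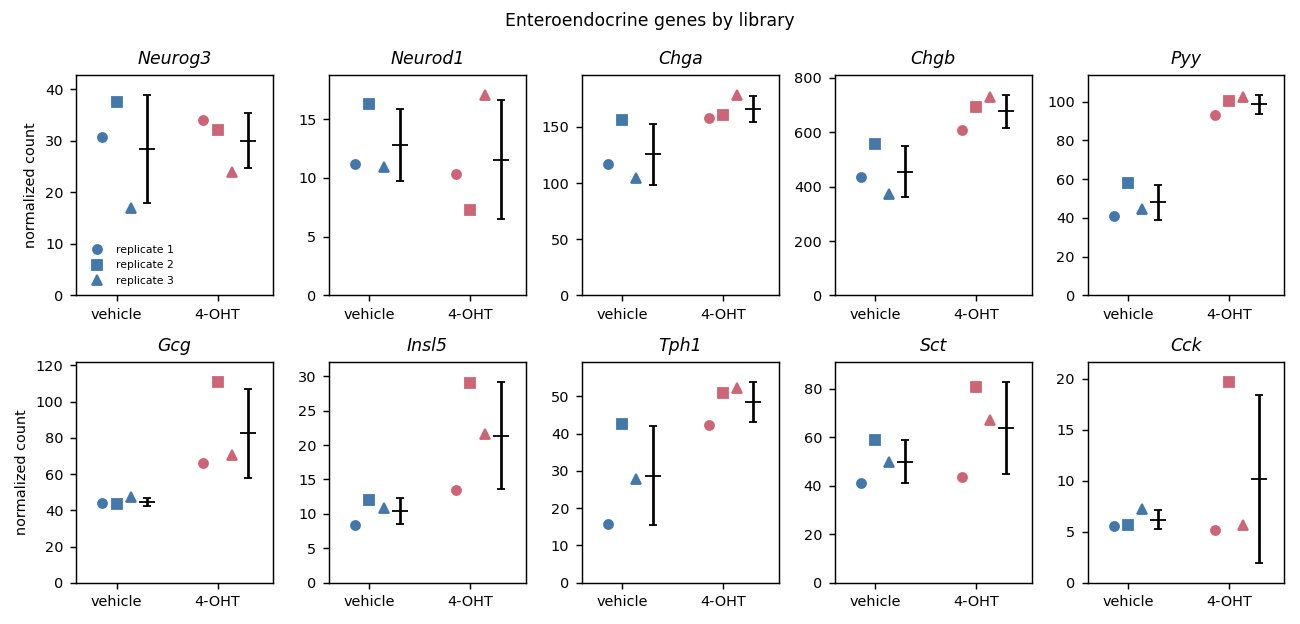
Normalized counts (vertical axes, from 0) of the 10 enteroendocrine genes in 3 vehicle (blue) and 3 4-OHT (red) libraries, with a marker shape per replicate number and black bars for the mean and SD. The 4-OHT values of Chga, Chgb, Pyy, Gcg and Insl5 lie above all vehicle values, those of Neurog3, Neurod1, Tph1, Sct and Cck overlap.

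Neither fate factor was called. Neurog3, the factor that commits progenitors, had 30.8, 37.6 and 16.9 normalized counts in vehicle replicates 1, 2 and 3 and 34.1, 32.1 and 23.9 in 4-OHT replicates 1, 2 and 3. The groups overlapped, and the highest and lowest values were both vehicle libraries. The log2 fold change was 0.13 (SE 0.31, limma adjusted p = 0.76), with a 95% interval from -0.51 to 0.78. Neurod1, which acts after Neurog3 and drives secretin and other hormone genes, had 11.2, 16.3 and 10.9 in vehicle and 10.3, 7.26 and 17.1 in 4-OHT libraries. Its lowest and highest values both fell in 4-OHT libraries. Its log2 fold change was -0.19 (SE 0.43, limma adjusted p = 0.75), with an interval from -1.08 to 0.70, and the values rest on 7 to 23 reads per library.

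The granins, acidic proteins that pack the hormone granule and mark endocrine cells of nearly every kind, were higher. Chgb had 437, 556 and 372 normalized counts in vehicle and 607, 691 and 729 in 4-OHT libraries. Every 4-OHT value exceeded every vehicle value, and the means were 455 ± 93.6 and 676 ± 62.0 (SD, n = 3 each). It rose by 0.59 on the log2 scale (SE 0.11, limma adjusted p = 2.0e-04). Chga had 117, 156 and 104 in vehicle and 158, 161 and 179 in 4-OHT libraries, a gap of under 3 normalized counts between the nearest values of the groups. Its means were 126 ± 27.1 and 166 ± 11.2, and the log2 fold change was 0.42 (SE 0.15, limma adjusted p = 0.029). The Chga call was lost in the edgeR test (adjusted p = 0.052) and in DESeq2 (0.074), and when vehicle replicate 1 (0.088), vehicle replicate 3 (0.14), 4-OHT replicate 2 (0.0502) or 4-OHT replicate 3 (0.10) was left out (limma adjusted p in each). Chgb passed with any single library left out. With 4-OHT replicates 2 and 3 both left out its log2 fold change was 0.44 (limma adjusted p = 0.085).

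Among the peptide hormones, Pyy and Gcg of L cells were higher. Pyy encodes peptide YY, released after meals to slow transit and curb appetite. It had 41.1, 58.2 and 44.8 normalized counts in vehicle and 93.0, 101 and 102 in 4-OHT libraries, so the 4-OHT values lay close together and well above the vehicle values. The means were 48.0 ± 9.0 and 98.7 ± 5.01 (SD, n = 3 each), a ratio of 2.06, and the log2 fold change was 1.04 (SE 0.19, limma adjusted p = 1.4e-04). Pyy passed the threshold in all 17 alternative fits, with log2 fold changes from 0.92 to 1.18. With 4-OHT replicates 2 and 3 left out it was 0.96 (limma adjusted p = 0.027).

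Gcg, the precursor of glucagon-like peptides 1 and 2 in L cells, had 43.8, 43.3 and 47.2 in vehicle and 66.1, 111 and 70.6 in 4-OHT libraries. The vehicle values were nearly equal, and 4-OHT replicate 2 lay far above the other 4-OHT libraries. Gcg rose by 0.83 on the log2 scale (SE 0.21, limma adjusted p = 0.0036). It was 0.60 without 4-OHT replicate 2 (limma adjusted p = 0.039) and 0.55 without both 4-OHT replicates 2 and 3 (limma adjusted p = 0.15).

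Insl5, a relaxin-family peptide of colonic L cells, had 8.40, 12.1 and 10.9 normalized counts in vehicle and 13.4, 29.0 and 21.6 in 4-OHT libraries. No 4-OHT value fell among the vehicle values, although the counts were 9 to 28 reads. The log2 fold change of 0.92 (SE 0.39) did not pass in limma (adjusted p = 0.063) and passed in the edgeR test (adjusted p = 0.041). In limma it was 1.20 without 4-OHT replicate 1 (adjusted p = 0.021), 0.67 without 4-OHT replicate 2 (adjusted p = 0.25) and 0.35 without both 4-OHT replicates 2 and 3 (adjusted p = 0.64).

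Sct and Cck, hormones of the S and I cells best known from the small intestine, were not called. Sct had 41.1, 58.9 and 49.6 in vehicle and 43.4, 80.9 and 67.2 in 4-OHT libraries, with 4-OHT replicate 1 inside the vehicle range. Its log2 fold change was 0.32 (SE 0.24, limma adjusted p = 0.29), with a 95% interval from -0.17 to 0.81. Leaving out 4-OHT replicate 1 gave 0.57 (limma adjusted p = 0.049), and leaving out 4-OHT replicates 2 and 3 turned it to -0.18 (limma adjusted p = 0.70). Cck lay under the mean of 10 and was not tested. It had 5.60, 5.67 and 7.26 in vehicle and 5.17, 19.7 and 5.69 in 4-OHT libraries. The 19 reads of 4-OHT replicate 2 stand alone beside 5 to 8 reads in each other library. For Gcg, Insl5, Sct and Cck the highest of all 6 values was in 4-OHT replicate 2. Among the 4-OHT libraries, replicate 2 held the highest value of 4 of the 10 members, replicate 3 of 5 and replicate 1 of 1. Replicate 2 also held it for 14 of the 20 granule and exocytosis genes described below and for 5 of the 8 colonic epithelium markers. For the other endocrine transcription factors it was 3 of 19, and for the goblet cell markers 0 of 6. The Paneth and ileal list and the plasma cell list were highest in replicate 2, and the smooth muscle list in replicate 3. The share over all genes was not computed, and a link between these patterns was not tested.

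**Figure D2:**
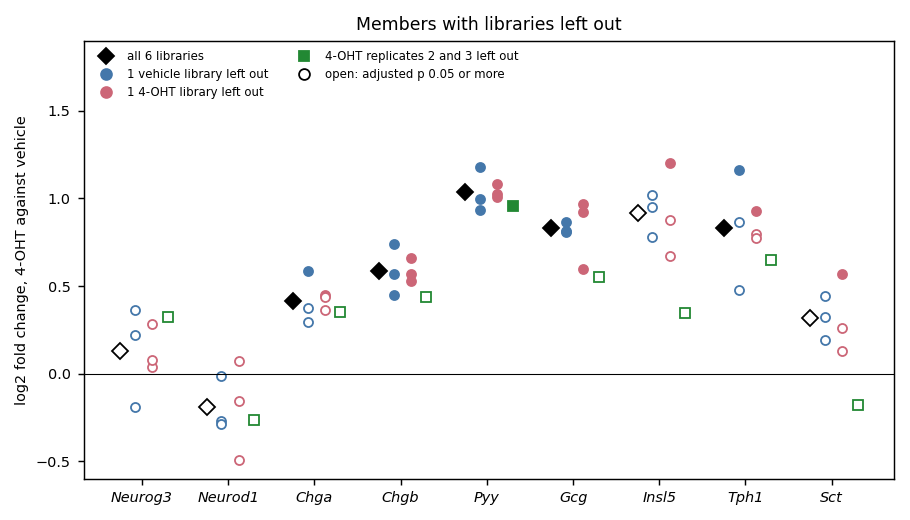
Log2 fold change, 4-OHT against vehicle (vertical axis), of the 9 tested members with all 6 libraries (black diamonds), with 1 library left out (circles, blue for vehicle and red for 4-OHT) and with 4-OHT replicates 2 and 3 left out (green squares); open symbols did not pass an adjusted p of 0.05. Pyy passed in every fit shown, and Sct, Neurog3 and Neurod1 lie on both sides of 0.

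Tph1, the rate-limiting enzyme of serotonin synthesis in enterochromaffin cells, had 15.9, 42.6 and 27.8 normalized counts in vehicle and 42.4, 50.8 and 52.4 in 4-OHT libraries. The vehicle libraries spread more than the 4-OHT libraries, and vehicle replicate 2 was level with 4-OHT replicate 1. Tph1 rose by 0.83 on the log2 scale (SE 0.30, limma adjusted p = 0.029). The value was 0.48 without vehicle replicate 1 (limma adjusted p = 0.18), and the call was also lost without vehicle replicate 3 (0.054), 4-OHT replicate 2 (0.080) or 4-OHT replicate 3 (0.085), in the edgeR test (0.066), in DESeq2 (0.081) and with no filter on low values (0.058; adjusted p in each).

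Of 9 listed serotonin genes 5 were tested, 1 was higher and 0 were lower, beside 22.7% higher and 21.0% lower over all genes tested. Ddc, the decarboxylase that completes serotonin synthesis and also acts in other epithelial cells, had 354, 363 and 396 in vehicle and 486, 532 and 443 in 4-OHT libraries, and rose by 0.39 on the log2 scale (SE 0.09, limma adjusted p = 0.0012), with no overlap. Slc18a1, which loads monoamines into granules, had 50.4 to 67.8 in vehicle and 76.7 to 83.1 in 4-OHT libraries, a log2 fold change of 0.41 that did not pass (limma adjusted p = 0.079). Its relative Slc18a2 had 29.1 to 42.0 against 28.5 to 41.5 (log2 fold change -0.12, limma adjusted p = 0.74). Maoa, which breaks serotonin down, was the most read gene of the list. It had 1541 to 1915 against 1835 to 1898 (limma adjusted p = 0.067). Its limma adjusted p was 0.0038 without vehicle replicate 2. It was 0.35 without vehicle replicate 1, 0.19 without vehicle replicate 3 and 0.065 without 4-OHT replicate 1. Mast cells also make serotonin through Tph1. The 3 mast cell markers among the rows (of 5 listed) summed to 0.0491 to 0.223 RPM in vehicle and 0.255 to 0.571 in 4-OHT libraries. The sums rest on few reads and differ through Cma1, with 1, 2 and 3 reads in vehicle and 11, 5 and 8 in 4-OHT libraries. Tpsb2 had 0, 3 and 0 reads against 0, 0 and 1, and Mcpt4 had 0, 1 and 0 against 0, 0 and 1. The part of mast cells in the Tph1 values was not tested.

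The promoters of several of these genes carry short motifs, and the stretches are shown to set the letters near the start beside the values of each gene. RefSeq windows on GRCm38.p6, from 250 bases before to 50 after each annotated start, were found for all 10 genes (13 windows, since 3 genes have 2 starts each). They were searched on both strands (TATAAA on the gene strand) for CAGATG, an E-box of the kind bound by basic helix-loop-helix factors such as NEUROD1 and NEUROG3, for TGACGT, the core of the cAMP response element, and for TATAAA, the TATA box. TGACGT stood in 2 of the 13 windows, those of Chga and Chgb, and in 7.51% of all 32851 windows. In Chgb the match is palindromic, so that it overlaps its own copy on the opposite strand. CAGATG stood in 4 of the 13 windows, those of Gcg, Insl5, Sct and Cck, and in 17.2% of all windows. TATAAA stood in 4 of the 13 windows, those of Chga, Gcg, Insl5 and Sct, and in 8.32% of all windows, and its stretches are not printed. Each line gives the gene strand 5′ to 3′, with CAGATG or TGACGT in capitals.
Chga, chr12:102554888-102554911, plus strand, 44 bases before the start: gcggtcctaTGACGTaatttcctg
Chgb, chr2:132781561-132781584, plus strand, 72 bases before the start: gctgctccgTGACGTcagggctga
Gcg, chr2:62483722-62483745, minus strand, 83 bases before the start: cattatttaCAGATGagaaattta
Gcg, chr2:62483778-62483801, minus strand, 139 bases before the start: cgtaaaaagCAGATGagcaaagtg
Insl5, chr4:103026892-103026915, minus strand, 178 bases before the start: agatgtgttCAGATGaccgagtga
Sct, chr7:141279361-141279383, minus strand, 242 bases before the start: cctggacaCAGATGaagatgtcc
Cck, chr9:121495710-121495733, minus strand, 30 bases before the start: ctgggtaaaCAGATGactggctgc
A match is a description of letters and not a bound site, and Pyy, Tph1, Neurog3 and Neurod1 had no match to any of the 3 motifs in these windows.

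Per kilobase of exon (union of exons in GENCODE vM21, GRCm38, not the build GRCm39 named in the processing notes), the order of levels was led by Chgb. In vehicle libraries Chgb stood at 166 ± 34.2 normalized counts per kb (SD, n = 3), followed by Sct at 77.3 ± 13.8 and Pyy at 76.1 ± 14.3, which lay within each other's spread. Chga followed at 45.6 ± 9.84 and Gcg at 30.0 ± 1.43. Neurog3 at 17.0 ± 6.29 and Insl5 at 14.4 ± 2.58 lay within each other's spread, as did Cck at 4.73 ± 0.721, Neurod1 at 4.69 ± 1.12 and Tph1 at 4.66 ± 2.17. In 4-OHT libraries Pyy, at 156 ± 7.94 normalized counts per kb, lay above Sct at 98.9 ± 29.4.

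The make-up of the hormone transcripts followed from these values. Of the summed level per kb of the 5 peptide hormone genes, Sct took 36.6% to 39.1% in vehicle and 23.9% to 30.3% in 4-OHT libraries, without overlap. Pyy took 35.5% to 39.5% in vehicle and 52.4%, 38.5% and 46.7% in 4-OHT replicates 1, 2 and 3, so that replicate 2 lay inside the vehicle range. The share of Gcg was 15.0% ± 2.33 in vehicle and 15.7% ± 2.18 in 4-OHT libraries (SD, n = 3 each), which differ by less than their spread.

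**Figure D3:**
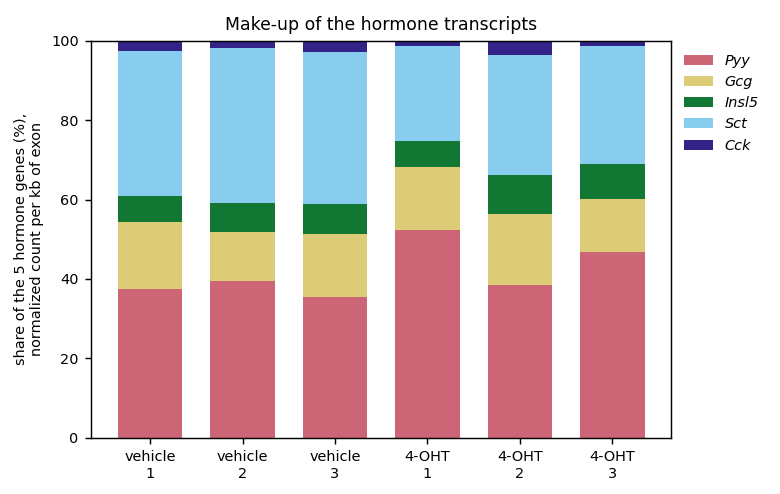
Stacked bars give the share (%) of each of 5 peptide hormone genes in their summed normalized count per kb of exon, for each of the 6 libraries. The Sct segment is smaller in all 3 4-OHT libraries (23.9% to 30.3%) than in the vehicle libraries (36.6% to 39.1%).

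Of 21 listed genes that process, pack and release hormones, 20 were among the rows and 12 were tested. Called higher were 5 and called lower 0, beside 22.7% higher and 21.0% lower over all genes tested. Ptprn, Pcsk1n, Scg2 and Syt13 averaged under 10 normalized counts in vehicle and were tested only through their 4-OHT values, so this count is no support. Of the remaining 8 genes 3 were higher (Cpe, Pcsk1 and Pam). Cpe, carboxypeptidase E, which trims the cut prohormones, had 382, 403 and 433 normalized counts in vehicle and 1176, 1320 and 1290 in 4-OHT libraries. That is a ratio of 3.11 and a log2 difference of 1.63 (SE 0.07, limma adjusted p = 2.3e-12), larger than that of any member. Ptprn, a membrane protein of the dense-core granule, had 11.2, 4.26 and 4.84 against 18.6, 17.6 and 27.3, with a log2 difference of 1.60 (SE 0.44, limma adjusted p = 0.0061) that carries the same limit. Both genes had every 4-OHT value above every vehicle value.

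The convertase gene Pcsk1 and the inhibitor gene Pcsk1n were called higher with less margin. Pcsk1, which cuts proglucagon to glucagon-like peptide 1, had 27.1, 25.5 and 24.2 in vehicle and 35.1, 43.5 and 48.9 in 4-OHT libraries, a log2 difference of 0.70 (SE 0.25, limma adjusted p = 0.031). Pcsk1n, a peptide inhibitor of that convertase, had 3.73, 5.67 and 7.26 against 11.4, 23.8 and 12.5, a log2 difference of 1.33 (SE 0.47, limma adjusted p = 0.029). Pcsk1n was tested only through its 4-OHT values, so its call is no support. The Pcsk1 call was lost in 9 of 16 alternative fits and the Pcsk1n call in 6 of 16, among them those without vehicle replicate 1 (limma adjusted p = 0.051 and 0.094), vehicle replicate 2 (0.071 and 0.056) and 4-OHT replicate 2 (0.075 and 0.16); for Pcsk1 also those without vehicle replicate 3 (0.070) and 4-OHT replicate 3 (0.11). Pam, which amidates peptide ends and is read throughout the epithelium, rose by a log2 difference of 0.20 (SE 0.05, limma adjusted p = 0.0065). Scg2, a further granin, had 3.63 to 9.22 in vehicle and 7.23, 28.0 and 11.4 in 4-OHT libraries and did not pass in limma (adjusted p = 0.073), while edgeR gave an adjusted p of 0.044. Enteric neurons also hold Scg2, and of their 9 markers Stmn2 had 0 to 2.42 normalized counts in vehicle and 2.07, 19.7 and 19.4 in 4-OHT replicates 1, 2 and 3. Prph was at 0 in every library, and the summed list ran from 7.09 to 7.31 RPM in vehicle and from 8.15 to 11.4 in 4-OHT libraries. The part of these cells in the result was not tested. With 4-OHT replicates 2 and 3 left out, only Cpe of the 5 remained past the threshold, and limma adjusted p was 0.10 for Ptprn and 0.30 for Pam.

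Only 1 of the other gut hormones was read deeply enough to test. Nts, neurotensin, made by cells of the distal small intestine and colon, had 25.2, 57.5 and 24.2 normalized counts in vehicle and 68.2, 70.5 and 72.9 in 4-OHT libraries, with vehicle replicate 2 near the 4-OHT values. The log2 fold change was 1.08 (SE 0.27, limma adjusted p = 0.0031), and 1.03 without 4-OHT replicates 2 and 3 (limma adjusted p = 0.11). Sst, somatostatin of D cells, had 1.21 to 7.46 in vehicle and 5.17 to 14.8 in 4-OHT libraries, and Ghrl, ghrelin, 2.84 to 8.47 against 3.10 to 6.83, both too few to test. Of the 12 listed hormones 9 were among the rows.

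Of 19 other endocrine transcription factors 6 were tested, 1 was higher and 2 were lower, a share close to the 43.6% called over all genes tested. Foxa1, a pioneer factor of the whole epithelium, rose by a log2 difference of 0.20 (SE 0.04, limma adjusted p = 0.0011). Its relative Foxa2 fell by 0.55 on the log2 scale (SE 0.17, limma adjusted p = 0.014), with 122, 145 and 138 normalized counts in vehicle and 75.4, 81.9 and 124 in 4-OHT libraries. Without vehicle replicate 2 or 4-OHT replicates 1 or 2 the Foxa2 call was lost (limma adjusted p = 0.060, 0.065 and 0.059). Rfx3, a factor of ciliated and endocrine cells, fell by 0.31 on the log2 scale (SE 0.11, limma adjusted p = 0.035), a call lost in 8 of 17 alternative fits, among them those without vehicle replicates 1 (0.10) or 2 (0.12) or 4-OHT replicates 2 (0.070) or 3 (0.13).

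Insm1, expressed in Neurog3-positive precursors, had 36.4, 24.1 and 18.2 normalized counts in vehicle and 26.9, 15.5 and 28.5 in 4-OHT libraries, with overlapping groups (limma adjusted p = 0.77). Factors that mark later endocrine cells, such as Nkx2-2 (1.21 to 4.97 in vehicle, 4.55 to 11.4 in 4-OHT) and Pax6 (0 to 3.63 and 2.07 to 6.20), lay under the mean of 10. Rfx6, needed for several peptide lineages, had 9.93 to 14 in vehicle and 3.11 to 7.97 in 4-OHT libraries and was not tested either; without the filter its adjusted p was 0.16 in limma.

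Factors of the common secretory progenitor were tested in full, and of 6 genes 2 were higher and 1 was lower, again close to the 43.6% called over all genes tested. Sox4, active in progenitors of tuft and endocrine cells, rose by 0.65 on the log2 scale (SE 0.05, limma adjusted p = 1.7e-09), with 7575 to 8208 normalized counts in vehicle and 11749 to 13057 in 4-OHT libraries. Spdef, a goblet cell factor, rose by 0.34 (SE 0.10, limma adjusted p = 0.012), a call lost without 4-OHT replicate 2 (limma adjusted p = 0.055) and without both 4-OHT replicates 2 and 3 (0.36). Dll4, a Notch ligand of secretory cells, fell by 0.49 on the log2 scale (SE 0.12, limma adjusted p = 0.0019), a call lost without both 4-OHT replicates 2 and 3 (limma adjusted p = 0.17). Atoh1, the factor that starts the secretory fate, had 165 to 180 in vehicle and 130 to 156 in 4-OHT libraries without overlap, but its log2 fold change of -0.24 did not pass (limma adjusted p = 0.13). Groups that do not overlap were found for 52.1% of all genes tested.

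Of 13 receptors that endocrine cells use to sense nutrients and hormones, 2 were tested and 0 were called, in limma, edgeR and DESeq2 alike. Over all genes tested 43.6% were called in limma, and a count over 2 genes says little. Of the 2, 0 had an unadjusted p under 0.05. Ffar2, a receptor for short-chain fatty acids on L cells, had 23.3 to 32.7 normalized counts in vehicle and 32.0 to 39.4 in 4-OHT libraries (limma adjusted p = 0.33). Ffar4, a receptor for long-chain fatty acids, had 582 to 622 against 530 to 571 (limma adjusted p = 0.16). Its groups did not overlap, as was found for 52.1% of all genes tested.

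**Figure D4:**
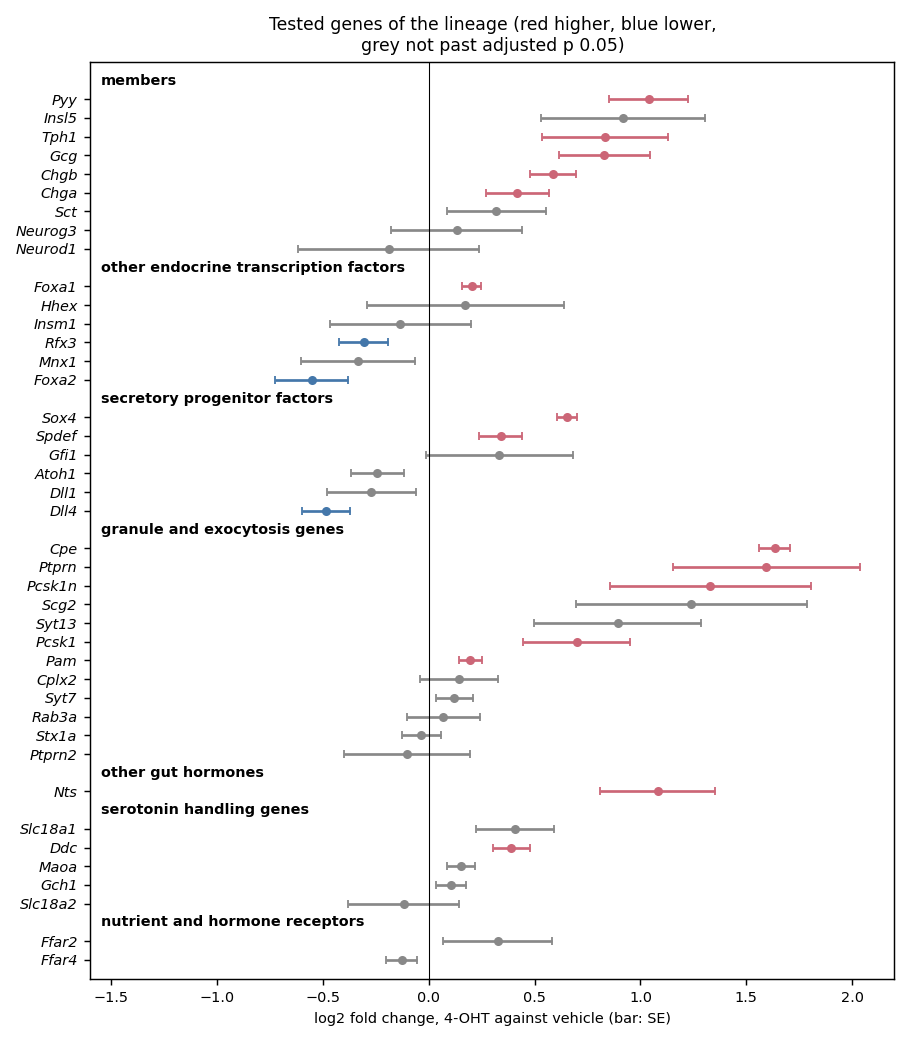
Log2 fold change, 4-OHT against vehicle (horizontal axis, bars are SE), of every tested gene on the 7 lineage lists, red for higher, blue for lower and grey for genes that did not pass an adjusted p of 0.05 in limma. Granins, Pyy, Gcg and Cpe lie to the right, as does Ptprn, which was tested only through its 4-OHT values. Neurog3, Neurod1 and Insm1 have wide bars that cross 0.

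Among the vehicle libraries, replicate 2 held the highest value of 8 of the 10 members and of 5 of the 6 goblet cell markers. It also held that of 7 of 9 other gut hormones and 5 of 8 colonic epithelium markers. For the granule and exocytosis genes it was 5 of 20, and for the other endocrine transcription factors 5 of 19. The share over all genes was not computed. By the root mean square difference of log2 values centred on the vehicle mean, over all 6 libraries, the genes outside the lists nearest to the mean profile of the 9 tested members were Spink4 (0.04), Pdzd3 (0.07), 1810065E05Rik (0.10), Sult1d1 (0.11) and Camk2b (0.11). Within 0.2 of that mean lay 448 genes outside the lists, so a profile this near is not particular to those named. Of the 9 members only Chgb (0.09) and Chga (0.13) lay within 0.2. The members themselves lay between 0.09 for Chgb and 0.62 for Neurod1 from that mean, with the fate factors Neurod1 and Neurog3 (0.45) the farthest of the 9. Neurod1 rests on 7 to 23 reads per library and Neurog3 on 14 to 53, against 307 to 784 for Chgb. The part of counting error in these distances was not tested. Among other secretory cells, 4 of the 6 goblet markers were higher and 1, Fcgbp, was lower, beside 22.7% and 21.0% over all genes tested. Of the 4, Zg16 had overlapping groups and did not pass in edgeR (adjusted p = 0.093) or DESeq2 (0.35). Of the 2 tuft markers tested 1 was higher and 0 were lower. The difference between these lists and the enteroendocrine genes was not tested.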

How the data were processed

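The 6 libraries were compared as 3 vehicle against 3 4-OHT, grouped by their titles. The deposited signal consists of normalized counts, for which the authors scaled the reads of each library by its own size factor. The processing notes of the submitters name STAR, DESeq2 and GRCm39 (mm39), while the counting tool and annotation are not given in the sources used here. Multiplied back, 100% of the values came within 0.1 of a whole read, which gave the recovered reads. The main test was limma-trend (limma 3.58.1, R 4.3.3) on log2 of the normalized count plus 1, over 13210 rows with a mean of at least 10, with Benjamini-Hochberg adjustment. A fold change on this scale understates changes of low genes. Alternatives were edgeR 4.0.16 and DESeq2 1.42.0 on recovered reads and other pseudocounts, filters, scalings and libraries. The comparison was tested on simulated data. Replicates differed by 3.49 to 6.44 times counting variance, so none was treated as a copy. Depth was 15804709 to 26957612 reads per library, which sets the counting error of the thinly read members. Members and lists were chosen with earlier results of these data known. Named are all members, the called genes and the most read gene of each list, and the 5 nearest profiles; Insm1, Atoh1, Slc18a1, Slc18a2, Ffar2, Scg2, Syt13, the untested factors and hormones, and single markers were named after their values were seen.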

Additional observations from a re-analysis of the deposited data

How the results depend on the processing

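Over 17 alternatives the 9 tested members gave 149 log2 fold changes, of which 126 kept direction and side of the threshold, 17 lost the threshold, 3 gained it and 3 reversed. The reversed values, none of them past the threshold, were those of Sct (-0.18 with 4-OHT replicates 2 and 3 left out), Neurog3 (0.36 to -0.19 with each library left out) and Neurod1 (-0.49 to 0.074). Insm1 also reversed (-0.36 to 0.13 with each library left out, 0.088 with 4-OHT replicates 2 and 3 left out). The members called numbered 5, but 3 in DESeq2, 1 with 4-OHT replicates 2 and 3 left out and 3 to 7 with each library left out (3 without vehicle replicates 1 or 3 or 4-OHT replicates 2 or 3). Genes called in all numbered 5765, and 3569 with 4-OHT replicates 2 and 3 left out; that fit also called 1 secretory progenitor factor in place of 3, 1 granule and exocytosis gene in place of 5, and 0 other gut hormones in place of 1, from fewer samples. Granule and exocytosis genes called were 2 with a mean of at least 50 (fewer genes tested), 3 after thinning and 3 to 6 with each library left out. Other endocrine transcription factors called were 1 to 3 with each library left out. Other gut hormones called were 2 with no filter, Nmb being the second (lower, limma adjusted p = 0.014). Serotonin handling genes called were 2 after thinning and 1 to 2 with each library left out. The replicate block gave 2 serotonin handling genes in place of 1 (Maoa, limma adjusted p = 0.045) and 5637 genes in all against 5765, and left the other lists' counts as they were. Same-numbered libraries had correlations of -0.01, 0.03 and -0.02 after group means were removed, so the numbers show no pairing. The causes of the other changes were not tested. Depth limits Cck, Insl5 and Neurod1 most, with 5 to 28 reads per library.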
